A study of Rattus norvegicus with 36 samples.

Results

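The cytosolic ribosomal protein genes were followed in RNA of primary alveolar macrophages, the phagocytes that take up inhaled particles, after exposure to poorly soluble particles in culture. A gene counted as a member when its symbol was Rpsa or Rpl, Rplp or Rps with a number (and, where present, a final a or x) and its mean over the 36 libraries was at least 20 CPM (a gene's share of the normalised library size, scaled to a fixed total). Of 23487 listed genes 69 matched by symbol and 63 were members, 39 of the large and 24 of the small subunit, and all 63 were among the 14498 genes tested. The cells came from male F344/HanZtmRj rats, were kept in culture for 5 days and were exposed for 4 days. The particles were Printex90, a carbon black, and the titanium dioxides G1-1, G3-1 and Bayertitan. For each particle there were a control group, a non-overload group and an overload group of 3 libraries labelled biological replicates, 12 groups in all. The labels used here state neither a particle dose for non-overload or overload nor whether replicates came from separate animals, so p-values measure the spread between these libraries.

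Every cytosolic ribosome joins a small subunit, which reads the messenger RNA, to a large subunit, which forms peptide bonds, and most of its proteins are present in a single copy. Cells therefore need their messages in similar amounts, and ribosomal protein messages are among the most abundant and steady of a cell. They typically begin with a run of pyrimidines directly at the transcription start, through which mTOR signalling and the RNA-binding protein LARP1 control their translation. In macrophages their translation and that of other messages changes with activation and nutrient supply, which RNA levels such as those given here do not show.

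The start sites of the members that the results turn on are printed first, since a pyrimidine run near the start was more frequent in the family than in all windows. Each line holds 20 bases before and 20 bases from the RefSeq transcription start on (build GRCr8), 5′ to 3′, with the longest unbroken run of C or T that touches the 15 bases on either side of the start in capitals.
Rps23 (chr2:23814497-23814536, plus strand): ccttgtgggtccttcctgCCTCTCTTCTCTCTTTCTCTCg
Rps24 (chr16:96497-96536, plus strand): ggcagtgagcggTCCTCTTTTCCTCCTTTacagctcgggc
Rps7 (chr6:50999426-50999465, minus strand): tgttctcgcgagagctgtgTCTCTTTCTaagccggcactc
Rpl11 (chr5:153560783-153560822, minus strand): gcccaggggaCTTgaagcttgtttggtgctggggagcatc
Rpl36a (chrX:102059429-102059468, plus strand): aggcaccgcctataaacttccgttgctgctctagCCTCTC
Rpl23 (chr10:83272165-83272204, minus strand): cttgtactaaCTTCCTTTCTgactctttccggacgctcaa
Rpl10 (chrX:157205830-157205869, plus strand): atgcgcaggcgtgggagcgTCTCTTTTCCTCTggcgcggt
Rpl9 (chr14:43247570-43247609, plus strand): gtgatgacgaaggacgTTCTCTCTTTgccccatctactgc

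Rps23 had the longest of these runs with 21 bases and Rpl11 the shortest with 3, and the run of Rpl36a goes on past the printed bases. Not every marked run holds the annotated start: those of Rpl11 and Rpl23 end before it, and that of Rpl36a begins after it. Rps12 and Rpl41 also had a longest run of 3 bases. RefSeq windows were held for 51 of the 63 members. Over these the median run was 11 bases, and over all 33469 windows it was 5. A run of at least 8 bases was present in 78.4% of members and 17.1% of all windows. The letters CTTTC or CTTCC stood within 15 bases of the start, on the sense strand, in 56.9% of members and 9.33% of all windows. Searched over 300-base windows on both strands, GGGCGG, a letter group bound by Sp factors, was in 56.9% of members and 33.1% of all windows. CCGGAAG, bound by ETS factors, was in 29.4% against 8.75%, and AAGATGG, which overlaps the core bound by YY1, was in 15.7% against 7.01%. The E-box CACGTG was in 9.80% against 6.42% and TATAAA in 9.80% against 14.2%. The start positions are those of the annotation and were not measured in these cells.

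Of the 6 symbols that fell short of the level, Rps20, Rps27a, Rpl13 and Rps6 were listed at 0 in all 36 libraries, and Rps29 had 1 read in 1 library. Rpl39 was the nearest symbol below the threshold, with a mean of 6.53 CPM and 0 in 22 libraries, and Rps21 the nearest above it, with 22.3 CPM. Rps6, the target of S6 kinases, and Rps20 are parts of every ribosome, so a listed 0 is read here as a value of the table and not as absent RNA. Reads of Rps27a stood under a second entry of that symbol, Rps27a.1, at a mean of 513 CPM, and Rps19l2, for which RefSeq gives the name Rps19, was at 358 CPM. Ribosomal protein genes have many near-identical copies in the rat genome, and the deposited values divide shared reads among entries by a model. Every single value is uncertain to that extent.

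The libraries held 22274320 to 37131475 estimated counts. The macrophage genes Cd68 and Lyz2 were at 483 to 879 and 9915 to 16861 CPM. Fibroblast RNA was uneven, with Col3a1 at 10 CPM or more in 15 libraries, and epithelial marker genes summed to 693 to 1802 CPM. In bulk RNA, fewer cells of a type and less RNA per cell cannot be told apart. Overload minus control differences in the mean log2 CPM of the epithelial markers were -0.93 for Printex90, -0.70 for G3-1, -0.93 for Bayertitan and 0.08 for G1-1.

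As a family the 63 genes took a steady share of each library. Their sum was 2.04 to 2.80% of the column total, with a median of 2.29%. In the G1-1 set the controls held 2.25, 2.27 and 2.48%, the non-overload libraries 2.27, 2.27 and 2.26% and the overload libraries 2.19, 2.10 and 2.14%. All 3 overload libraries thus lay below all other G1-1 libraries. In the Printex90 set the groups were at 2.39 ± 0.101, 2.54 ± 0.233 and 2.24 ± 0.0971% (control, non-overload and overload; SD, n = 3), and the highest library of all was Printex90 non-overload replicate 1 at 2.80%. That library had Col3a1 at 432 CPM and fibroblast markers summing to 1352 CPM, where the other 2 of its group had Col3a1 at 0 and sums of 20.9 and 26.2 CPM. The G3-1 groups held 2.31 ± 0.125, 2.29 ± 0.138 and 2.30 ± 0.150%, and the Bayertitan groups held 2.43 ± 0.152, 2.40 ± 0.136 and 2.22 ± 0.152%. The overload libraries of Printex90, G3-1 and Bayertitan overlapped their controls. Taken on normalised library sizes, the Printex90 means were 2.32% in controls and 2.30% with overload, and the Bayertitan means 2.35 and 2.27%. Those of G3-1 were 2.29 and 2.31%, and those of G1-1 2.34 and 2.18%. Small-subunit genes held 0.552 to 0.594 times the sum of large-subunit genes in every library.

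**Figure D1:**
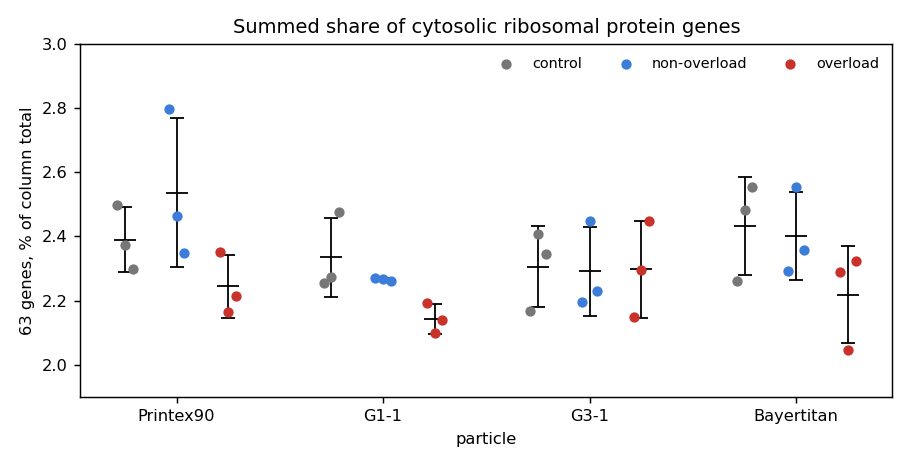
Summed share of the 63 genes in each library as a percent of the column total (y axis, starting at 1.9) for the 4 particles (x axis), with colour for the group and bars for mean and SD of 3 libraries. The G1-1 overload libraries lie at 2.10 to 2.19%, below the other G1-1 libraries, and the G3-1 groups overlap.

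The messages also varied together from library to library. Over the 36 libraries the median correlation of log2 CPM between 2 members was 0.57 across 1953 pairs, and it was 0.73 once group means were removed, so much of the shared variation lay between replicates of a group. The pairs share libraries and their normalisation. The SD of log2 CPM had a median of 0.0880 among members and 0.120 among 6839 other genes at 20 CPM or more. These sets were not matched for level, and counting error adds more to the SD at low CPM. The steadiest members were Rpl19 (SD 0.0482), which bridges the subunits, Rplp1 (0.0556), a protein of the stalk that recruits elongation factors, and Rps15 (0.0560). Rpl9, Rpl36 and Rps24 varied the most, with SDs of 1.03, 0.18 and 0.17. Rpl4, a core protein of the exit tunnel, followed the mean of the other members most closely (r = 0.95, n = 36). Rpl10 (r = -0.04), Rpl9 (r = -0.03) and Rps28 (r = 0.20) did not follow it, as descriptions over the same libraries. Among members with many reads were Rplp0, the base of the stalk, at a mean of 1050 CPM, Rpl10 at 975, Rplp1 at 757 and Rps2 at 662 CPM. CPM is not scaled to transcript length, so these are shares of reads and not a ranking of RNA molecules.

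**Figure D2:**
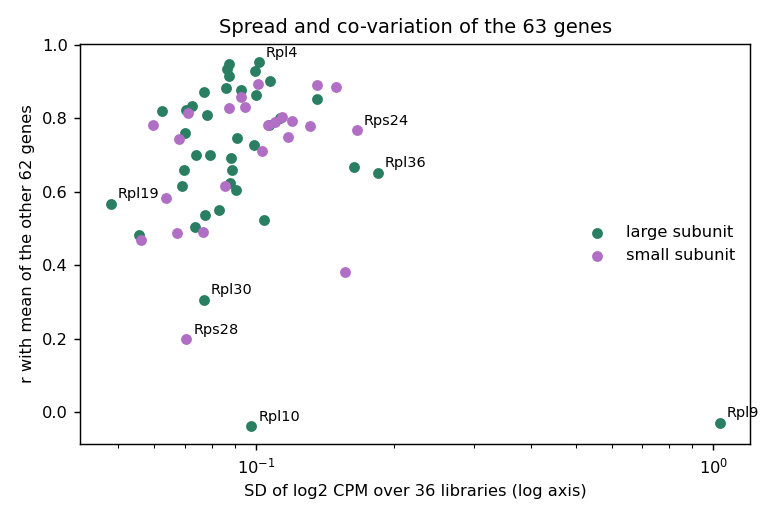
Each point is 1 of the 63 genes, with the SD of its log2 CPM over 36 libraries (x axis, log scale) and its Pearson correlation with the mean of the other 62 (y axis), coloured by subunit. Rpl9 stands apart at an SD of 1.03, and Rpl10 lies near 0 on the y axis at an SD of 0.0977.

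Overload with the titanium dioxide G1-1 lowered a subset of the family. Of the 63 genes 11 fell and 0 rose, where 2.71% of all genes tested fell and 2.30% rose (5.01% called in all; edgeR's quasi-likelihood test, Benjamini-Hochberg adjusted p under 0.05). The 11 were Rps23, Rps24, Rps7, Rps16, Rps9 and Rps25 of the small subunit and Rpl11, Rpl36a, Rpl23, Rpl13a and Rpl26 of the large subunit. The median log2 fold change of the 63 was -0.09 (all genes -0.01), and 51 were below 0. In 33 of them all 3 overload libraries lay below all 3 controls, an order that 13.2% of all genes tested had.

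Rps23, a protein of the decoding centre that bears on reading accuracy, was at 426, 435 and 461 CPM in the G1-1 controls, at 428, 419 and 414 CPM with non-overload and at 357, 340 and 340 CPM with overload. The overload libraries lay below the other 33 of the 36 libraries, while control and non-overload values overlapped. Its log2 fold change was -0.35 (SE 0.054, adjusted p = 0.000156 by edgeR).

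Rps24, a protein needed for maturation of small-subunit rRNA and mutated in some human Diamond-Blackfan anaemia, was at 305, 285 and 318 CPM in controls, 291, 286 and 294 CPM with non-overload and 221, 212 and 225 CPM with overload. No overload library came near the others of its set. It had the largest fall of the 63, with a log2 fold change of -0.47 (SE 0.080, adjusted p = 0.000570 by edgeR). Rps7, which acts in the same rRNA maturation and in human cells binds the p53 regulator MDM2, was at 480, 476 and 500.0 CPM in controls, 463, 462 and 461 CPM with non-overload and 402, 410 and 389 CPM with overload. The 3 groups were stepwise lower without overlap, and overload differed from control by -0.28 on the log2 scale (SE 0.053, adjusted p = 0.00188 by edgeR).

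Rpl11, which with Rpl5 forms the 5S ribonucleoprotein of the large subunit and binds MDM2 when ribosome assembly is disturbed, was at 318, 324 and 346 CPM in controls, 306, 291 and 293 CPM with non-overload and 257, 248 and 248 CPM with overload. The non-overload libraries fell between both other groups. The overload difference was -0.39 on the log2 scale (SE 0.076, adjusted p = 0.00214 by edgeR), and that of non-overload was -0.15 (adjusted p = 0.774). Its partner Rpl5 was at 454 ± 25.6 CPM in controls and 410 ± 14.4 CPM with overload and did not pass (log2 fold change -0.15, SE 0.073, adjusted p = 0.318).

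Rpl36a, a large-subunit protein beside the tRNA exit site, was at 79.8, 81.8 and 84.5 CPM in controls, 74.1, 77.2 and 78.8 CPM with non-overload and 64.7, 60.2 and 62.3 CPM with overload. Overload libraries lay below the rest and non-overload libraries between them and the controls, without overlap, with a log2 fold change of -0.40 (SE 0.077, adjusted p = 0.00224 by edgeR). Rpl23, which lies at the interface of the subunits, was at 307, 312 and 316 CPM in controls, 299, 294 and 309 CPM with non-overload and 263, 268 and 257 CPM with overload. Its non-overload values overlapped the controls, and its overload values did not. The log2 fold change of Rpl23 was -0.25 (SE 0.055, adjusted p = 0.00657 by edgeR).

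**Figure D3:**
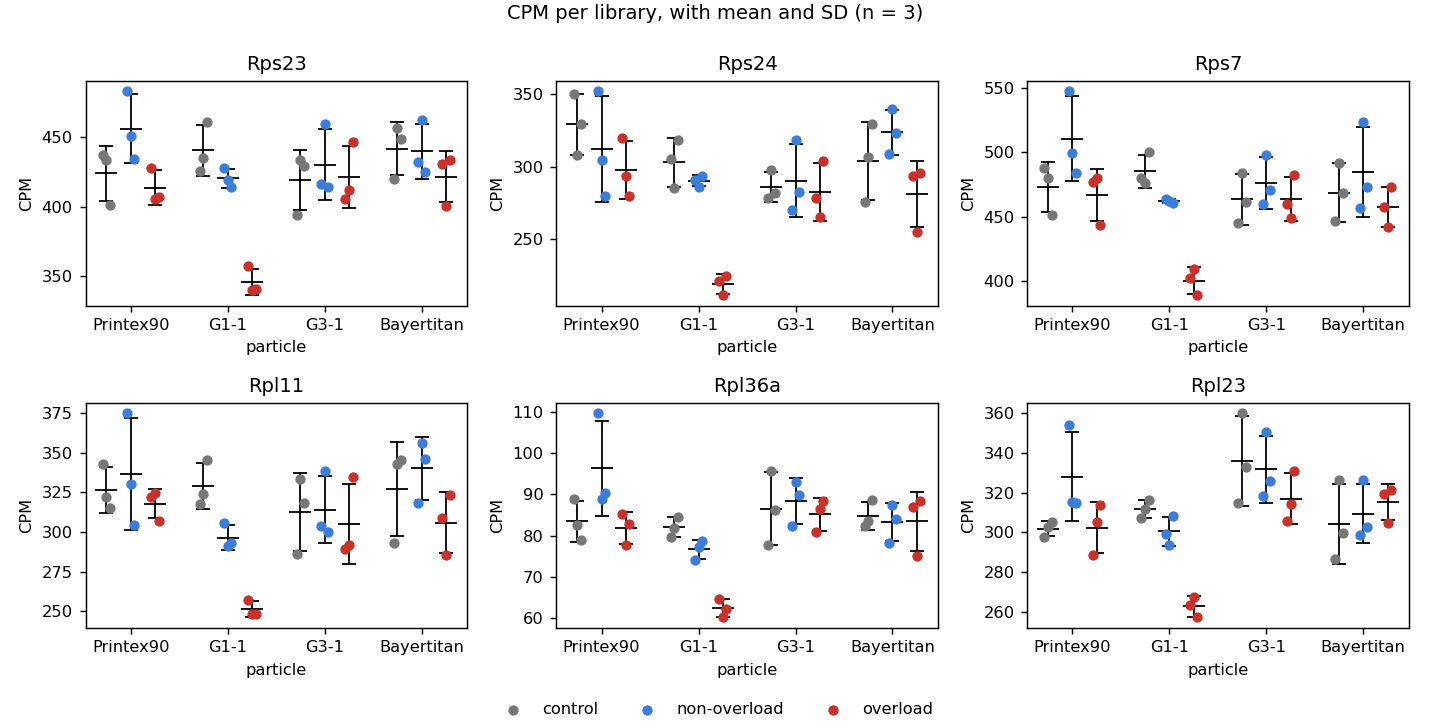
CPM of 6 genes in every library (y axes, not starting at 0) for the 4 particles (x axes), coloured by group, with mean and SD of 3 libraries. In each of the 6 panels the 3 G1-1 overload libraries lie below the other 33, and for Rps23 they lie at 340 to 357 CPM.

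The other 5 had larger adjusted p-values. Rps16, whose tail reaches the P-site tRNA, fell from 468 ± 24.6 to 369 ± 8.55 CPM (adjusted p = 0.0133 by edgeR), and Rps9, which borders the mRNA entry channel, from 379 ± 8.64 to 317 ± 11.5 CPM (adjusted p = 0.0232). Rpl13a, which in human monocytes leaves the ribosome to silence inflammatory messages, fell from 656 ± 15.5 to 548 ± 17.0 CPM (SD, n = 3; adjusted p = 0.0242). Rpl26, at the exit of the peptide tunnel, fell from 398 ± 15.8 to 342 ± 9.22 CPM (adjusted p = 0.0298), and Rps25, used by viral internal ribosome entry sites, from 84.5 ± 2.98 to 73.0 ± 1.91 CPM (adjusted p = 0.0356). Among members that did not pass, Rpl3, a protein near the peptidyl transferase centre, had a log2 fold change of 0.04 (SE 0.065). Rpsa, which is also known as a laminin receptor, was at -0.03 (SE 0.080), and Rplp0 was at 0.01 (SE 0.055). Rps4x, encoded on the X chromosome, was at -0.00 (SE 0.055), and Rpl19 at 0.04 (SE 0.044). Members near 0 and members lowered by overload were found in both subunits.

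When each of the 6 control and overload libraries was left out in turn, 6 to 7 members passed. Over all genes these fits called 345 to 627, against 727 in the main fit. Rps23, Rps24, Rps7, Rpl11, Rpl36a and Rpl23 did so in all 6 fits, and Rpl13a, Rpl26 and Rps25 in 0 of the 6. Rps16 did not pass without control replicate 3, overload replicate 2 or overload replicate 3, and Rps9 passed without overload replicate 2 alone. Fibroblast marker sums were 22.8 to 137 CPM in the G1-1 controls and 22.8 to 1063 CPM in the overload libraries. Without the libraries with Col3a1 at 10 CPM or more, which left 2 controls and 2 overload libraries, Rps23 (adjusted p = 0.0248) and Rps24 (adjusted p = 0.0395) passed. Epithelial marker sums were 984 to 1474 CPM in controls and 1244 to 1363 CPM with overload. With epithelial marker level as a covariate the count was 11, where 975 of all genes were called.

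Of the macrophage markers tested in the same contrast, 4 of 12 were lower and 1 higher in G1-1 overload libraries, with Adgre1 at -0.99, Siglec5 at -0.63, Csf1r at -0.49, Lyz2 at -0.41 and Ctsd at 0.28 on the log2 scale. Their part in the ribosomal protein result was not tested. Against G1-1 non-overload in place of control, 4 members fell and 0 rose (1.95% of all genes called, 1.36% lower): Rps23 (-0.28), Rps24 (-0.41), Rps7 (-0.21) and Rpl36a (-0.30). Both comparisons use the same overload libraries. With any 1 of their 6 libraries left out Rps23 and Rps24 passed and Rps7 and Rpl36a did not, and without the Col3a1 libraries 0 members passed.

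With the other particles few members passed. Printex90 overload changed 0 of 63 members (7.99% of all genes called; 1 member and 3657 of 14498 genes at an unadjusted p under 0.05; 1 member and 1608 genes called by DESeq2), with a median log2 fold change of -0.02 and, without Rpl9, values from -0.16 to 0.16. The median standard error of a member was 0.065. G3-1 overload also changed 0 of 63 (0.117% called; 1 member and 1770 genes at an unadjusted p under 0.05; 1 member and 77 genes by DESeq2), with a median of 0.00. Bayertitan overload changed 1, Rpl10, which rose (9.84% called, 5.74% higher), with a median of -0.07 and 53 of 63 below 0. Rps23 differed from controls by -0.04 with Printex90, 0.01 with G3-1 and -0.07 with Bayertitan overload (SE 0.054 for each). Rps24 differed by -0.14, -0.02 and -0.11 in the same order (SE 0.080 for each).

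An F test asked whether overload effects differed between the 4 particles. Rps23 passed it (adjusted p = 0.0266 by edgeR; 1.72% of all genes called), and the other 62 members did not, among them Rps7 (adjusted p = 0.0862) and Rps24 (adjusted p = 0.0888). At an unadjusted p under 0.05 there were 11 members among 2533 of 14498 genes, and DESeq2 called 5 members among 635 of 14496 genes. Rps23 passed in 12 of 24 fits with 1 control or overload library left out. It did not pass without any 1 of the 6 G1-1 libraries, nor without Printex90 control replicate 2, G3-1 control replicate 1, G3-1 overload replicate 2 or 3, Bayertitan control replicate 3 or Bayertitan overload replicate 1. For the other 10 genes lowered by G1-1, a difference between particles was therefore not shown by edgeR.

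**Figure D4:**
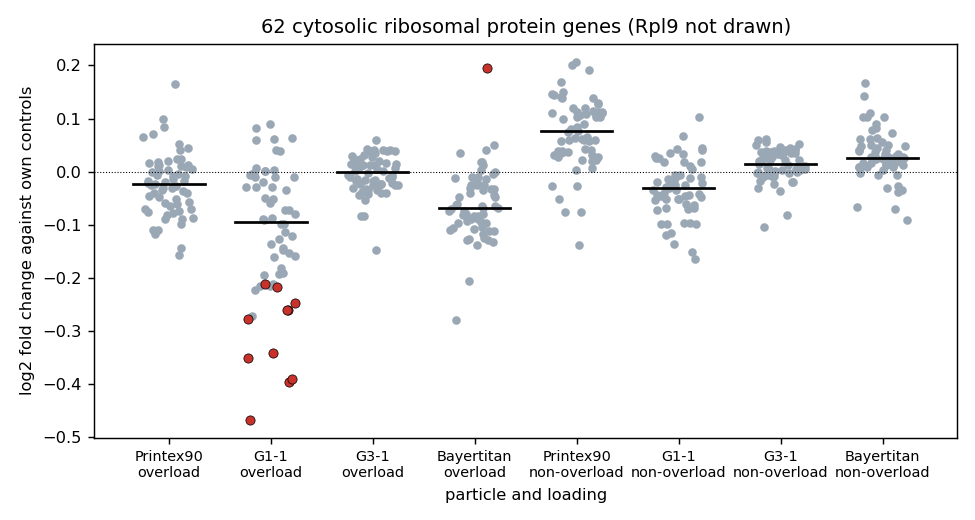
Log2 fold change against the particle's own controls (y axis) for 62 of the genes in 8 comparisons (x axis). Lines mark medians and red points mark genes with an adjusted p under 0.05, which are 11 for G1-1 overload and Rpl10 for Bayertitan overload. Rpl9 is left out for its range.

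Non-overload changed 0 of 63 members with each particle by edgeR and by DESeq2. Over all genes, 0.0621% were called for G1-1 and 0 for the other particles. At an unadjusted p under 0.05 there were 11 members for Printex90, 0 for G1-1, 1 for G3-1 and 2 for Bayertitan, where 628, 925, 782 and 2352 of all 14498 genes were in the same order. The median was 0.07 with Printex90, where 56 of 63 members were above 0 (0.02 without non-overload replicate 1, the library with fibroblast RNA), -0.03 with G1-1, 0.02 with G3-1 and 0.03 with Bayertitan. Overload against non-overload changed 0 members by edgeR for Printex90 (1.59% of all genes called; 22 members among 2984 genes at an unadjusted p under 0.05, 2 members among 885 genes by DESeq2), where the median was -0.10. It changed 0 for G3-1 and Bayertitan (0% of all genes; 0 members among 920 genes and 9 among 927 at an unadjusted p under 0.05, 0 members by DESeq2), with medians of -0.02 and -0.10.

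Averaged over the 4 particles, overload lowered 8 members and raised 2, of 63 (24.0% of all genes called, 11.9% higher and 12.1% lower). The lower ones were Rps24 (-0.18), Rpl36 (-0.17), Rps16 (-0.15), Rpl11 (-0.14), Rpl36a (-0.12), Rps23 (-0.11), Rps9 (-0.10) and Rps7 (-0.08). The share called among members, 10 of 63, was below that of all genes. For Rps24, the strongest of the 8 by p (adjusted p = 0.00160 by edgeR), G1-1 gave -0.47, and the other particles gave -0.14 or less in size. Rpl36, a small protein of the large subunit, had -0.28 with Bayertitan, -0.21 with G1-1, -0.16 with Printex90 and -0.03 with G3-1, none of which passed alone. With epithelial marker level as a covariate 0 members passed for the average, where 525 of all genes did. Without the libraries with Col3a1 at 10 CPM or more, some groups of this average held 1 library. On column totals without normalisation factors 31 members passed, 30 of them lower, where 4052 of 14498 genes were called and 2966 were lower. The last setting moved the median of all genes by up to 0.0861 on the log2 scale. Leaving out 1 library gave 6 to 17 members, with 17 without G3-1 overload replicate 3. The count was 6 without Printex90 control replicate 1, G1-1 control replicate 3, G3-1 control replicate 2 or Bayertitan overload replicate 2. Rps24, Rps23, Rpl11 and Rps16 passed in all 24 such fits, Rps7 in 19, Rpl36a in 17, Rps9 in 13 and Rpl36 in 6.

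Rpl10, which completes the large subunit and lies near the peptidyl transferase centre, moved the other way. In the Bayertitan set it was at 882, 950 and 842 CPM in controls, 960.5, 1034 and 1006 CPM with non-overload and 1040, 1057 and 966 CPM with overload. All exposed libraries lay above the controls, and the 2 loadings overlapped. Overload raised it by 0.20 on the log2 scale (SE 0.057, adjusted p = 0.0366 by edgeR), and non-overload gave 0.17 (SE 0.057, adjusted p = 0.218). The overload call was lost without control replicate 1 or 3 or overload replicate 1 or 2, on column totals, with no filter on low counts, with the epithelial covariate, without the Col3a1 libraries and in a fit of the 9 Bayertitan libraries alone. With Printex90 overload Rpl10 differed by 0.16 (adjusted p = 0.0723), with G3-1 by 0.04 and with G1-1 by -0.01. Over the 4 particles it rose with overload (0.10, SE 0.029, adjusted p = 0.0141) and with non-overload (0.11, SE 0.029, adjusted p = 0.0401; 2.75% of all genes called), where it was the single member called. The mean overload call was lost on column totals, with the epithelial covariate and without the Col3a1 libraries. The mean non-overload call was lost in 15 of 24 fits with a library left out.

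Rpl9, a protein at the base of the stalk, varied more than any other member. It was at 7.74, 8.80 and 35.3 CPM in the G3-1 controls and at 146, 72.3 and 60.3 CPM with G3-1 overload, without overlap (log2 fold change 2.43, SE 0.55, adjusted p = 0.0754 by edgeR). In the Bayertitan controls it was at 93.4, 21.0 and 134 CPM, so replicates of 1 group differed several-fold. The 4 control groups differed (adjusted p = 0.0229 by the F test in edgeR, 5.59% of all genes called), and Rpl9 was the single member called there. It did not pass without Printex90 control replicate 2, G3-1 control replicate 1 or G3-1 control replicate 2. Overload raised it on average (log2 fold change 0.96, SE 0.26, adjusted p = 0.00830), and no single particle passed.

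Among all genes the entry most opposed to Rpl9 was LOC100360449, chosen after its values were seen, with r = -0.75 over the 36 libraries. Rpl9 ran from 7.74 to 186 CPM, a 24.1-fold range, and LOC100360449 from 167 to 359 CPM, a 2.15-fold range. Their sum ran from 281 to 459 CPM, a 1.63-fold range, with an SD of log2 values of 0.122. Summed, the G3-1 groups were at 343 ± 24.4 CPM in controls and 351 ± 9.59 CPM with overload (SD, n = 3), which overlapped. In the G1-1 set the sum was 337 ± 3.03 CPM in controls and 292 ± 10.9 CPM with overload. LOC100360449 was lower with overload on average (-0.32, SE 0.094, adjusted p = 0.0144). No table used here names this entry. Whether reads passed from one entry to the other was not tested, and the Rpl9 values above are to be read with that in mind.

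**Figure D5:**
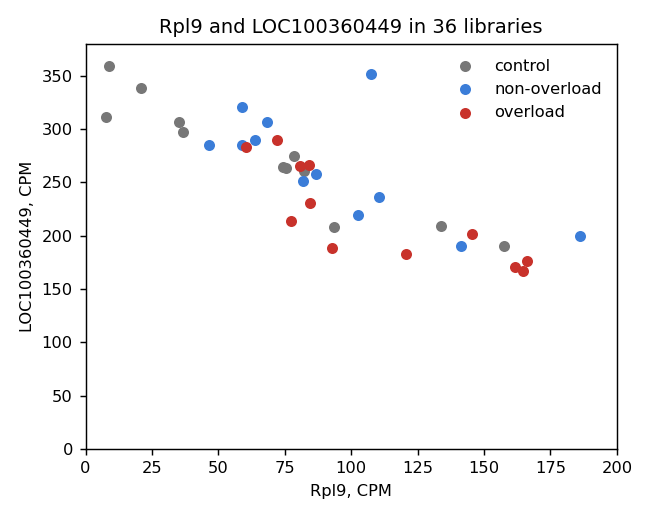
CPM of Rpl9 (x axis) and of the entry LOC100360449 (y axis) in the 36 libraries, coloured by group. Libraries with little Rpl9 hold more of the other entry, with 1 Printex90 non-overload library apart from the rest (107 and 351 CPM), and the sum stays between 281 and 459 CPM.

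Some relatives and further entries of the family were also lower with G1-1 overload. With G1-1 overload Rps27a.1, which carries a ubiquitin fused to a small-subunit protein, fell from 508 ± 7.80 to 406 ± 11.3 CPM (SD, n = 3; log2 fold change -0.32, adjusted p = 0.00600 by edgeR). Of 7 tested paralogs 2 fell, where 2.71% of all genes did. Rpl22l1, a paralog of Rpl22, went from 61.8 ± 2.75 to 44.7 ± 3.23 CPM (adjusted p = 0.00389 by edgeR). Rpl36al, which closely resembles Rpl36a, went from 61.4 ± 6.28 to 45.8 ± 3.26 CPM (adjusted p = 0.0420 by edgeR). These calls and that of Rps27a.1 were not followed with libraries left out or without the Col3a1 libraries. Rps19l2 gave -0.05 and the second entries Rpl21.2 and Rps10.1 gave -0.03 and -0.05, none called. Over the 4 particles Rpl22l1 and the p53 target Rps27l each fell by 0.23 (adjusted p = 0.00109 and 0.00102). Rack1, a scaffold of the small subunit, was at 0 under its own symbol and at 420 CPM as Rack1.1.

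Genes for ribosome assembly were lower on average. Of 45 tested biogenesis genes 19 fell and 1 rose over the 4 particles (median -0.09), where 12.1% of all genes fell. Rrs1, an assembly factor of the large subunit, fell by 0.30 (adjusted p = 0.000484 by edgeR), Nop16 by 0.17, Bop1 by 0.18 and the box C/D protein Nop56 by 0.18. Nucleolin (Ncl) fell by 0.11, and the methyltransferase gene Fbl gave -0.07 (adjusted p = 0.350). With epithelial marker level as a covariate 0 of the 45 passed, and without the Col3a1 libraries 2 did, and 0 for G1-1. Within particles 2 of the 45 fell with G1-1, Rrp9 (-0.42) and Nop16 (-0.29), where 2.71% of all genes fell. With Bayertitan 3 fell, Bop1 (-0.35), Wdr75 (-0.25) and Mybbp1a (-0.31). Of all genes 9.84% were called there, 5.74% higher and the remainder lower. With Printex90 and G3-1 0 fell, where 7.99% and 0.117% of all genes were called in either direction.

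Of 18 tested translation factors and related genes whose messages also begin with a pyrimidine run, 3 fell and 1 rose on average (12.1% of all genes fell and 11.9% rose), namely Nap1l1 (-0.17), Eef1d (-0.15), Npm1 (-0.12) and Eif3f (0.12). With G1-1 overload Naca, a chaperone of nascent chains, fell from 339 ± 10.1 to 285 ± 4.14 CPM (adjusted p = 0.00558), a call lost without the Col3a1 libraries. The elongation factors Eef1a1 and Eef2 gave -0.14 (SE 0.049, adjusted p = 0.0978) and 0.09 (SE 0.044, adjusted p = 0.280), and Tpt1 gave -0.18 (adjusted p = 0.0514). Of the 18, 4 were called for the average, and 0 with the epithelial covariate or without the Col3a1 libraries.

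Among 18 tested genes that control ribosomal protein synthesis, 7 rose and 3 fell on average, where 11.9% of all genes rose and 12.1% fell. Myc, a transcription factor that drives ribosome production, fell by 0.24 (adjusted p = 0.00133 by edgeR), with -0.34 for Bayertitan (adjusted p = 0.0381), -0.30 for Printex90, -0.28 for G3-1 and -0.04 for G1-1. Mycn fell by 0.61 and the S6 kinase gene Rps6kb1 by 0.13, while Mnt, a repressor that competes with Myc, rose by 0.17, Rptor of the mTOR complex by 0.12 and Larp1 by 0.09. This list was not followed with the epithelial covariate or without the Col3a1 libraries. Over all genes those fits called 525 and 1091 for the average, against 3484 in the main fit. The part of epithelial or fibroblast RNA in these changes was not tested. With G1-1 overload 1 of the 18 was called, where 5.01% of all genes were. It was Eif4ebp1, an inhibitor of cap-dependent translation, which rose from 27.4 ± 3.61 to 43.6 ± 6.52 CPM (log2 fold change 0.67, adjusted p = 0.00558 by edgeR). Without the Col3a1 libraries 140 of all genes were called for G1-1 overload, against 727 in the main fit. Mitochondrial ribosomal proteins, which belong to a separate ribosome, had 5 of 72 lower and 0 higher with G1-1 (median -0.11), where 2.71% of all genes were lower. On average 4 were higher and 4 lower, a smaller share than the 24.0% of all genes called. Without the Col3a1 libraries 0 of the 72 passed in either comparison.

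The genes whose levels followed the mean of the members most closely, of 14435 other tested genes, included Eef1g (r = 0.89), Eef1a1 (r = 0.87), Rpl36al (r = 0.86), Eef1b2 (r = 0.85), Serbp1 (r = 0.81) and Ppa1 (r = 0.80). The rest of the first 10 were entries named by a LOC number, with r from 0.88 to 0.92. All are descriptions over 36 libraries that share depth and normalisation.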

How the data were processed

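The authors deposited a single table of estimated counts (expected counts) per gene, not scaled to library size, for 36 libraries made from 150 ng of RNA with ribosomal RNA depletion, per the labels' protocols. Per the submitters' processing notes, Salmon, FastQC and MultiQC were used with the genome build Rnor_6.0. Versions, annotation and the step from transcripts to genes are not given in the sources used here. Of the values 47.7% are not whole, and counts were rounded. Columns were matched to samples by name.

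Genes were filtered with filterByExpr by group (14498 kept) and scaled by TMM. All libraries entered 1 quasi-likelihood fit in edgeR 4.0.16 (limma 3.58.1, R 4.3.3) with 12 group means, which leaves 24 residual degrees of freedom. Benjamini-Hochberg adjustment ran over the whole table of tested genes (threshold 0.05). CPM values use TMM library sizes, and errors are SDs of 3 libraries. Correlations use log2 CPM with a prior count of 2. Intervals from depth are not given for single values, since replicate SDs include counting error. DESeq2 1.42.0 was an alternative. The fits were tested on simulated counts.

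The members and lists were chosen with earlier results of these data known. Named members are the smallest p-values per comparison, the extremes of level and spread, and a fixed set. The C or T run, the pair with LOC100360449 and the counts of other lists under alternatives were added after the data were seen. Sequences are from RefSeq (GRCr8), matched by symbol for 51 of 63 members. Gene positions of Rnor_6.0 were not used. Same-numbered replicates did not deviate together (15 of 36 correlations above 0.1, from -0.67 to 0.43), so numbers were not treated as pairs. Some items are not reported here.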

Additional observations from a re-analysis of the deposited data

Results flagged for a closer look

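Rps23 is listed because its overload effects differed between the 4 particles by a test of the difference itself (F test in edgeR, adjusted p = 0.0266). Its log2 fold change against control was -0.35 with G1-1, -0.04 with Printex90, 0.01 with G3-1 and -0.07 with Bayertitan (SE 0.054 each), and all 3 G1-1 overload libraries lay below all 3 controls. With 1 control or overload library left out, Rps23 passed the F test in 12 of 24 fits. It did not pass without any 1 of the G1-1 control or overload libraries. Groups of 3 libraries are too small to judge whether a single sample is outlying.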

How the results depend on the processing

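No called member changed direction. Medians of the members near 0 changed sign under some settings, among them Bayertitan non-overload (0.03, and -0.04 without the Col3a1 libraries) and Printex90 overload (-0.02, and 0.03 without them). Leaving out the Col3a1 libraries left 1 library in each of the Printex90 control, G3-1 non-overload, G3-1 overload and Bayertitan non-overload groups. Counts of members called moved as follows. With DESeq2 the count was 1 for Printex90 and for G3-1 overload against control, 2 and 9 for Printex90 and G1-1 overload against non-overload, and 5 for the difference between particles. Without the libraries with Col3a1 at 10 CPM or more it was 2 and 0 for G1-1 overload against control and non-overload, 4 for the mean overload effect, and 0 for Bayertitan overload, the mean non-overload effect, the difference between particles and the controls. With the epithelial covariate it was 0 for Bayertitan overload, both mean effects and the controls. Over all genes that fit called 0 for Bayertitan overload, 525 and 57 for mean overload and mean non-overload, and 495 for the controls. With the fibroblast covariate it was 0 for mean non-overload and 2 for the difference between particles. On column totals it was 1 and 2 for Printex90 and G1-1 overload against non-overload, 31 for mean overload and 0 for the difference between particles. Over all genes this setting called 168, 441, 4052 and 288 in the same order. With no filter it was 0 for Bayertitan overload, mean non-overload and the difference between particles, and with a filter of 1 CPM in 3 libraries 2 for G1-1 overload against non-overload and 0 for that difference. In fits of 9 libraries it was 18 and 11 for G1-1 overload against control and non-overload, where 736 and 223 of 13801 genes were called. It was 0 for Bayertitan overload, where 0 of 13941 genes were called. The cause was not tested. The replicate block, on numbers that do not pair the samples, gave 10 for G1-1 overload, 1 for Printex90 overload against non-overload and 3 for the difference between particles. For the controls this fit set the particles against each other at replicate 1 and not by group means. Its count of 1, which was not Rpl9, therefore answers another question than the main fit. With 1 library left out, counts ran from 6 to 7 (G1-1 overload), 2 to 2 (against non-overload), 0 to 2 (Bayertitan overload, 2 without overload replicate 3), 6 to 17 (mean overload) and 0 to 1 (mean non-overload, Printex90 and G3-1 overload, difference between particles, controls), and stayed at 0 elsewhere. Among results for single members under alternatives 529 stayed on their side of the threshold and 173 did not pass. The median of the members moved beyond the replicate spread with column totals for Printex90 overload (-0.09, and -0.19 against non-overload) and Bayertitan overload (-0.15). Without the Col3a1 libraries it did so for non-overload of G3-1 (0.10) and Bayertitan (-0.04) and for G3-1 overload against non-overload (-0.16). Each of these comparisons without the Col3a1 libraries had a group of 1 library, and the last set 1 library against 1. With 3 libraries a group and member standard errors near 0.065 within a particle, changes under about 0.2 on the log2 scale could mostly not be called there. The mean overload effect had smaller standard errors, such as 0.027 for Rps7, and changes under 0.2 were called in it.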
